A study of Mus musculus with 61 samples.

Results

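E2f7 and E2f8 encode the atypical E2F transcription factors, and they were followed here through the livers of the 8 founder strains of the Diversity Outbred mouse stock. Their rows, found by gene symbol, were 2 of the 18754 genes in the deposited count table, and both passed the filter on low counts that left 16165 genes for testing. They were selected on the measured level of E2f7, which was very high in PWK, so the levels of both genes in PWK are given as a description, without a test. The tests of these 2 genes were made only among the other 7 strains and within strains.

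E2F factors switch on the genes that a cell needs to enter S phase and copy its DNA. E2F7 and E2F8 bind DNA without the DP partner that the classical E2F factors need, are not held in check by the retinoblastoma protein and its relatives, and act mainly as repressors of E2F target genes. In liver they are known for promoting polyploidy, the state in which hepatocytes carry extra sets of chromosomes, and both have also been linked with HIF1 to the control of Vegfa, the gene of a vessel growth factor.

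The groups were the inbred strains strain-129 (the prefix is added here), AJ, B6, Cast, NOD, NZO, PWK and WSB, of which Cast, PWK and WSB were derived from wild mice. All mice shared a high-fat, high-sugar diet, labelled as 45% fat, and there was no group on another diet. The labels give no genotype other than the strain and no sex, age or collection time. That each library came from its own mouse is not said, so p-values rest on the spread between libraries, some of which may be technical. Polyadenylated liver RNA was sequenced in 60 libraries with a column in the table, 8 of each strain except AJ (n = 6), B6 (n = 7) and Cast (n = 7). Library totals ranged from 19.98 to 69.17 M reads with a median of 30.42 M. Levels are read counts scaled to library size with TMM factors (CPM). In whole liver, fewer cells of a type and less RNA per cell cannot be told apart.

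In GRCm38, E2f7 (ENSMUSG00000020185) lies on chromosome 10, 110745439 to 110787384, plus strand, and E2f8 (ENSMUSG00000046179) on chromosome 7, 48866429 to 48881596, minus strand. GENCODE lists 9 transcripts of E2f7, 4 of them protein-coding, whose merged exons span 9009 bases, and 4 transcripts of E2f8, 2 of them protein-coding, with 5443 bases. The promoters are shown because both genes differed between strains at the RNA level and both are themselves known targets of E2F factors. The 300 bases around each gene start, from RefSeq in GRCm38.p6, are chr10:110745189-110745488 for E2f7 and chr7:48881547-48881846 for E2f8. They are written 5′ to 3′ on the strand of the gene. Capitals mark matches to the E2F motif TTCCCGC or TTGGCGC, to the cell cycle element CHR (TTTGAA) and to CCAAT, on either strand.
E2f7 promoter: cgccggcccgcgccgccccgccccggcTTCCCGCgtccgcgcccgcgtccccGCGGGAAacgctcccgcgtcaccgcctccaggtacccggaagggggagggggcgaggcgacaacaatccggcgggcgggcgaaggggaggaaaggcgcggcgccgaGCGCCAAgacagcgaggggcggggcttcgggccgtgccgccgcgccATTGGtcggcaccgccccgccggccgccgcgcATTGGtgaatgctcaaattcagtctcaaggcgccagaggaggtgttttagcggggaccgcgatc
E2f8 promoter: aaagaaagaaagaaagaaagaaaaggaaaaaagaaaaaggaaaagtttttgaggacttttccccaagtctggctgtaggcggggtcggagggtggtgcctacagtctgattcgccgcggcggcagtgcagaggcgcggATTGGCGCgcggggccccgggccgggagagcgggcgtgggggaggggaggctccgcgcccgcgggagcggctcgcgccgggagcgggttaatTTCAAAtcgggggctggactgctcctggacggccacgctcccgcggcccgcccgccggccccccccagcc

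Counted from the gene start, with base 1 as the first transcribed base, the E2f7 promoter held TTCCCGC at -223 to -217 and, on the opposite strand, at -198 to -192. It also held TTGGCGC on the opposite strand at -92 to -86, and CCAAT on the opposite strand at -46 to -42 and -14 to -10. The E2f8 promoter held TTGGCGC at -111 to -105, which overlapped CCAAT on the opposite strand at -112 to -108, and TTTGAA on the opposite strand at -20 to -15. Over 32544 mouse promoters of this length, at least 1 E2F motif was found in 6.8%, TTTGAA in 17.8% and CCAAT in 37.4%. The G and C content was 75.3% in the E2f7 promoter and 66.7% in the E2f8 promoter, against a median of 53%. A match is a description of letters and not evidence of binding. These are bases of the reference genome, and the alleles of the other strains were not analysed here.

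E2f7 was at a trace level in most livers and at a high one in PWK. In the PWK libraries numbered 1, 2, 3, 4, 5, 6, 7 and 9 its level was 150.2, 127.2, 88.9, 115.7, 87.3, 131.9, 115.5 and 135.3 CPM, read from 2260 to 4870 reads. The mean was 119 ± 22.1 CPM (SD, n = 8), and PWK had the smallest relative spread of any strain, 18.5% of its mean. The other strains had only 5 to 612 reads of E2f7 per library, where counting error adds to the relative spread, so strains cannot be compared by it. The lowest PWK library, PWK 5, was still 5.20 times the highest library of any other strain, Cast 7, so the groups did not overlap. Of all 16165 genes, 169 (1.05%) had every PWK library above every other library, and 119 (0.736%) had every PWK library below.

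Among the remaining strains E2f7 was highest in Cast, with a lowest library of 2.65, a median of 7.55 and a highest of 16.8 CPM (8.82 ± 5.77, SD, n = 7). WSB followed, from 0.590 through a median of 3.65 to 7.13 CPM (3.56 ± 2.09, n = 8). NZO ranged from 0.821 through 1.14 to 3.26 CPM (1.35 ± 0.804, n = 8). The PWK mean was thus 13.5 times the Cast mean, while Cast and WSB, and WSB and NZO, had libraries in common ranges. The last 4 strains lay together. NOD had 0.274, 0.884 and 1.37 CPM as lowest, median and highest (0.900 ± 0.344, n = 8), and B6 had 0.386, 0.616 and 1.97 CPM (0.807 ± 0.577, n = 7). Strain-129 had 0.381, 0.627 and 1.83 CPM (0.778 ± 0.496, n = 8), and AJ had 0.178, 0.508 and 0.723 CPM (0.504 ± 0.203, n = 6). Every neighbouring pair in this order below PWK overlapped. At this depth the lowest values rest on few reads, 5 in AJ 6, so differences among the lowest strains are poorly resolved.

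E2f8 followed another order, without a strain that stood clear of the rest. Strain-129 had the highest mean, with 2.35, 7.12 and 36.7 CPM as lowest, median and highest (14.3 ± 13.2, SD, n = 8). WSB ranged from 4.43 through 15.97 to 21.1 CPM (13.5 ± 5.55, n = 8). PWK came next by mean, and its libraries 1, 2, 3, 4, 5, 6, 7 and 9 were at 22.6, 13.95, 2.48, 3.49, 3.22, 24.4, 17.6 and 6.25 CPM (11.7 ± 9.06, n = 8). From lowest to highest library, the spread within strain-129, WSB and PWK was wider than the whole range of the strain means, as it was within B6 and NZO below. B6 ranged from 4.64 through 6.78 to 19.4 CPM (9.82 ± 5.50, n = 7), and NOD from 3.11 through 7.86 to 11.1 CPM (7.34 ± 3.10, n = 8). NZO ranged from 2.03 through 5.25 to 15.5 CPM (5.997 ± 4.17, n = 8), and AJ from 2.94 through 4.87 to 6.59 CPM (4.89 ± 1.28, n = 6). Cast was lowest, from 0.0898 through 1.26 to 3.16 CPM (1.24 ± 1.03, n = 7), and in Cast 5 the gene had 3 reads. All neighbouring pairs in this order overlapped, Cast and AJ included.

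**Figure D1:**
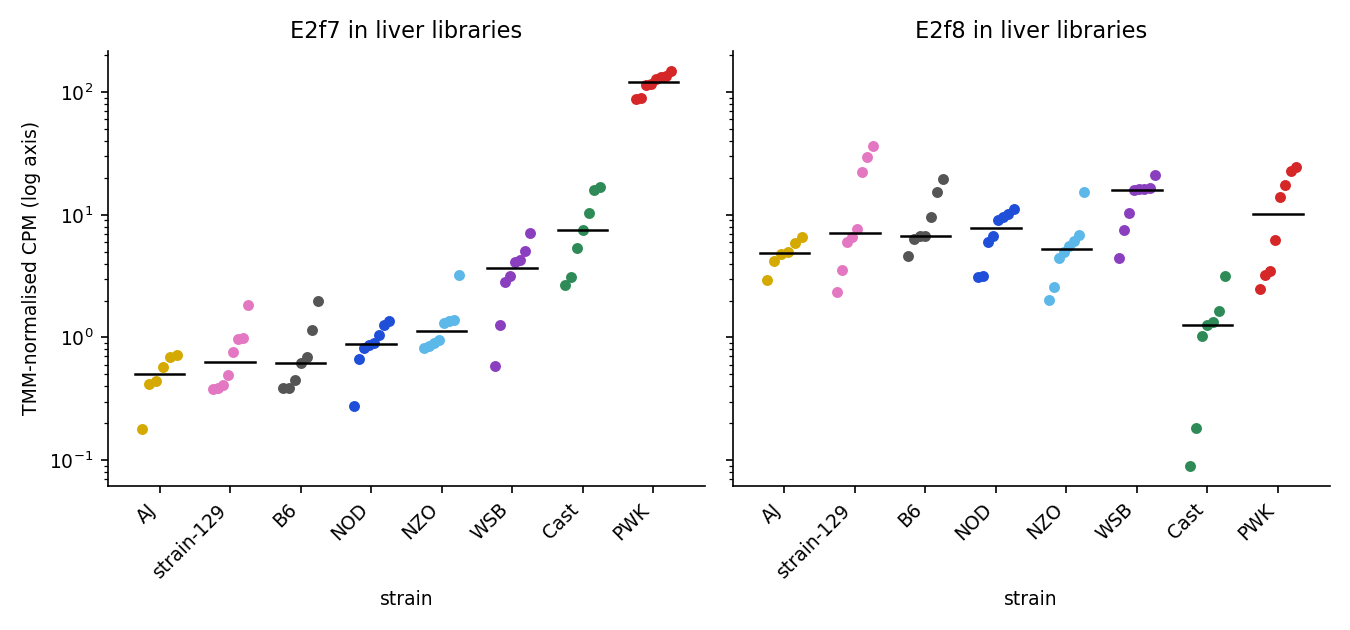
Level of E2f7 (left) and E2f8 (right) in each liver library, in TMM-normalised CPM on a log axis, by strain in ascending order of mean E2f7. Each point is a library and each line the median of its strain. The 8 PWK libraries lie between 87.3 and 150.2 CPM for E2f7, above every other library, while their E2f8 values, 2.48 to 24.4 CPM, lie among those of the other strains.

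The balance between the paralogues therefore differed between strains. Divided by merged exon length, PWK had 13.2 ± 2.45 CPM per kb of E2f7 and 2.16 ± 1.66 CPM per kb of E2f8 (SD, n = 8). The ratio of E2f7 to E2f8 on this per-length scale was above 1 in 8 of 8 PWK libraries, with a median of 9.30, and in 6 of 7 Cast libraries, with a median of 4.42. It was above 1 in 0 libraries of any other strain, whose medians ran from 0.0352 in B6 to 0.150 in NZO. Cast combined the second highest mean of E2f7 with the lowest mean of E2f8. The lengths are those of all exons annotated in GENCODE together, and the models used for the counts may differ. Which transcripts were present was not measured.

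**Figure D2:**
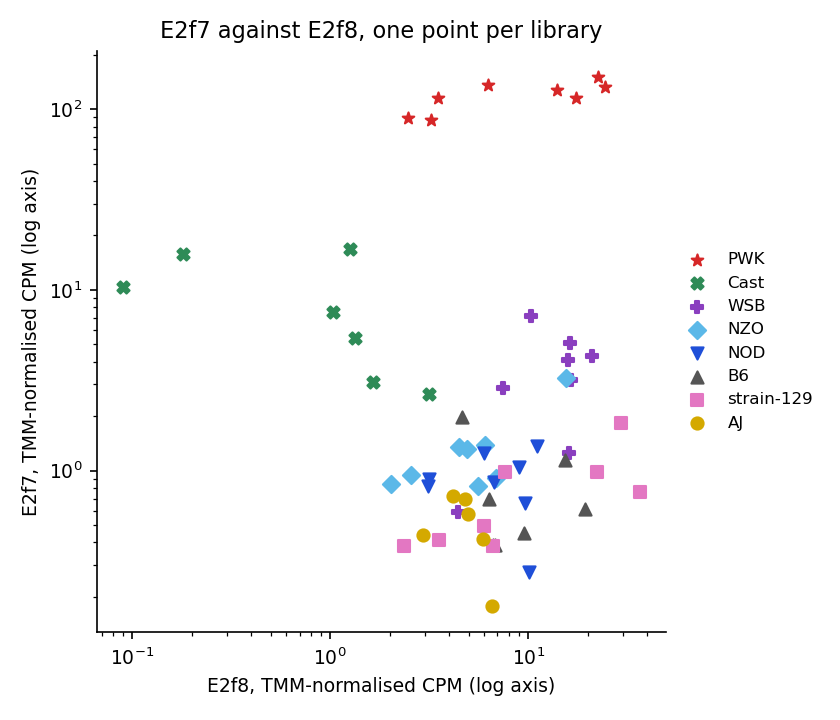
E2f7 against E2f8 in 60 liver libraries, both in TMM-normalised CPM on log axes. Each symbol is a library, and its shape and colour give the strain. PWK lies at the top, at 87.3 CPM of E2f7 or more, and Cast to the left, at 3.16 CPM of E2f8 or less. The other strains lie mostly at the lower right. Some of their libraries share the E2f8 range of Cast, such as NZO 7 at 2.03 CPM.

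The strains other than PWK also differed from each other. In the edgeR test among these 7 strains, E2f7 had F = 32.2 (adjusted p = 3.93e-15) and E2f8 had F = 8.01 (adjusted p = 7.28e-06). This is common in these livers, since 85.6% of all genes passed the same test. Each strain was then set against the mean of the other 6, on the log2 scale and with its standard error. E2f7 was higher in Cast by 3.06 ± 0.24 (adjusted p = 2.25e-16), with 7 of 7 libraries above that mean, in a contrast that called 60.4% of all genes at an adjusted p under 0.05, 30.9% higher. It was higher in WSB by 1.51 ± 0.26 (adjusted p = 4.13e-06), in 7 of 8 libraries, where 44.8% of genes were called, 22.2% higher. Called thus means past this threshold, in all counts that follow.

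E2f7 was lower in AJ, at -1.72 ± 0.41 (adjusted p = 0.00114), in 6 of 6 libraries, with 22.4% of genes called and 10.3% called lower. It was also lower in strain-129, at -1.04 ± 0.33 (adjusted p = 0.019), in 7 of 8 libraries, and in B6, at -0.94 ± 0.35 (adjusted p = 0.0348), in 6 of 7 libraries. In the contrast of strain-129 22.2% of genes were called, 9.97% lower, and in that of B6 32.2%, 13.9% lower. Both calls depended on single libraries. The one in strain-129 ended without its library 8 (adjusted p = 0.0549), and the one in B6 ended when any of its libraries 3, 4, 6, 7 or 8 was left out, with adjusted p up to 0.0907. NOD (26.7% of genes called) did not pass, at -0.80 with a 95% interval from -1.45 to -0.15 (adjusted p = 0.0669), and NZO (44.0%) did not pass, at -0.09 with an interval from -0.69 to 0.51 (adjusted p = 0.835). The mean that each strain is set against contains Cast and WSB, which raises it for E2f7.

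E2f8 was lower in Cast, at -2.80 ± 0.51 (adjusted p = 4.64e-06), in 7 of 7 libraries. It was higher in strain-129 by 1.32 ± 0.34 (adjusted p = 0.00252), in 6 of 8 libraries, and in WSB by 1.22 ± 0.34 (adjusted p = 0.00269), in 7 of 8 libraries. The value of strain-129 leaned on library 7, the highest of all 60, without which it was 0.95 (adjusted p = 0.0489), and it did not pass with limma on the authors' variance-stabilised values (0.69, adjusted p = 0.0833). In the remaining 4 strains E2f8 did not pass. The value was 0.68 in B6 (95% interval -0.05 to 1.41), 0.20 in NOD (-0.52 to 0.92), -0.14 in NZO (-0.89 to 0.60) and -0.49 in AJ (-1.35 to 0.38). WSB was therefore higher for both genes, while Cast was higher for E2f7 and lower for E2f8.

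**Figure D3:**
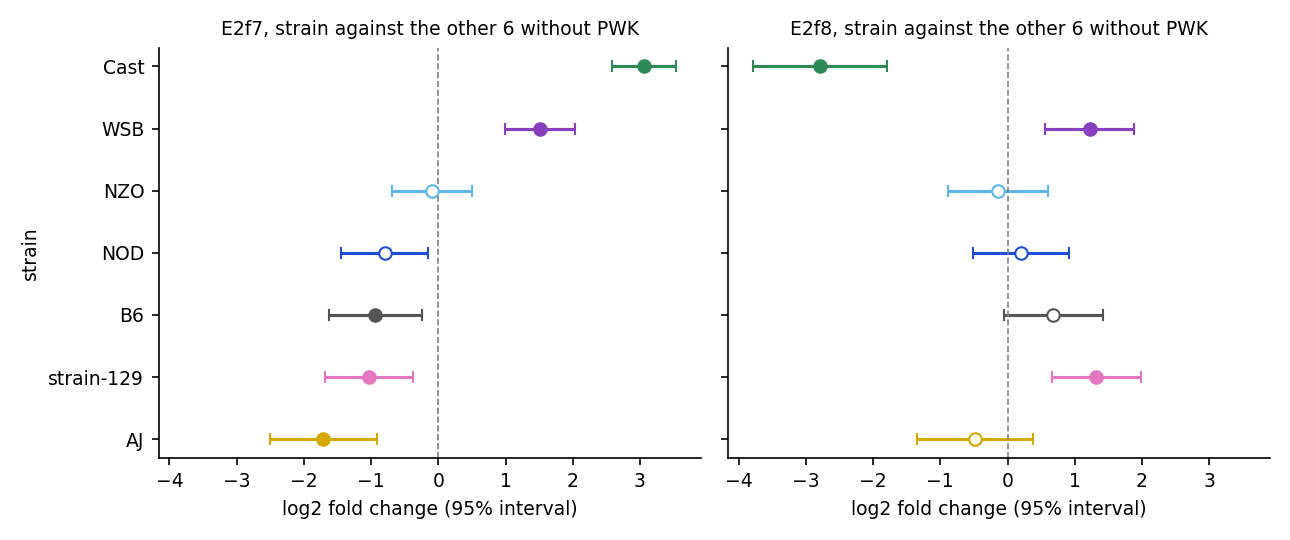
Log2 fold change of E2f7 (left) and E2f8 (right) in each strain against the mean of the other 6 strains without PWK, with 95% intervals. Filled points passed an adjusted p of 0.05 in edgeR and open points did not. Cast has the highest value for E2f7 (3.06) and the lowest for E2f8 (-2.80).

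Part of the spread within strains went with Xist, the RNA made from the inactive X chromosome. Every strain held libraries above and below 100 CPM of Xist, with a wide gap between them, and the labels do not account for this. In PWK, the 4 libraries of high Xist (1, 2, 6 and 7) had E2f8 at 13.95 to 24.4 CPM, and the 4 of low Xist (3, 4, 5 and 9) at 2.48 to 6.25 CPM, without overlap. E2f7 in the same libraries was at 115.5 to 150.2 and at 87.3 to 135.3 CPM, which overlap. In Cast the 3 libraries of high Xist had less E2f7 (2.65 to 5.39 CPM) than the 4 of low Xist (7.55 to 16.8 CPM), and more E2f8 (1.33 to 3.16 against 0.0898 to 1.26 CPM).

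In no other strain were the high-Xist libraries all above the low-Xist ones in E2f8, or all below them in E2f7. In AJ, E2f8 was lower in the 4 libraries of high Xist (2.94 to 4.97 CPM) than in the 2 of low Xist (5.88 to 6.59 CPM), and E2f7 was higher (0.442 to 0.723 against 0.178 to 0.416 CPM). In B6, E2f7 was higher in the 4 libraries of high Xist (0.616 to 1.97 CPM) than in the 3 of low Xist (0.386 to 0.450 CPM). The other ranges overlapped, for both genes in NOD, NZO, strain-129 and WSB and for E2f8 in B6. An overlap does not mean equal levels. In NOD, for example, the E2f8 ranges overlapped only through NOD 8, a low-Xist library at 11.1 CPM. The part of Xist in these levels was not tested, but with its log2 level as a covariate the test results of both genes in the 7 strains kept their direction and their side of the threshold.

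**Figure D4:**
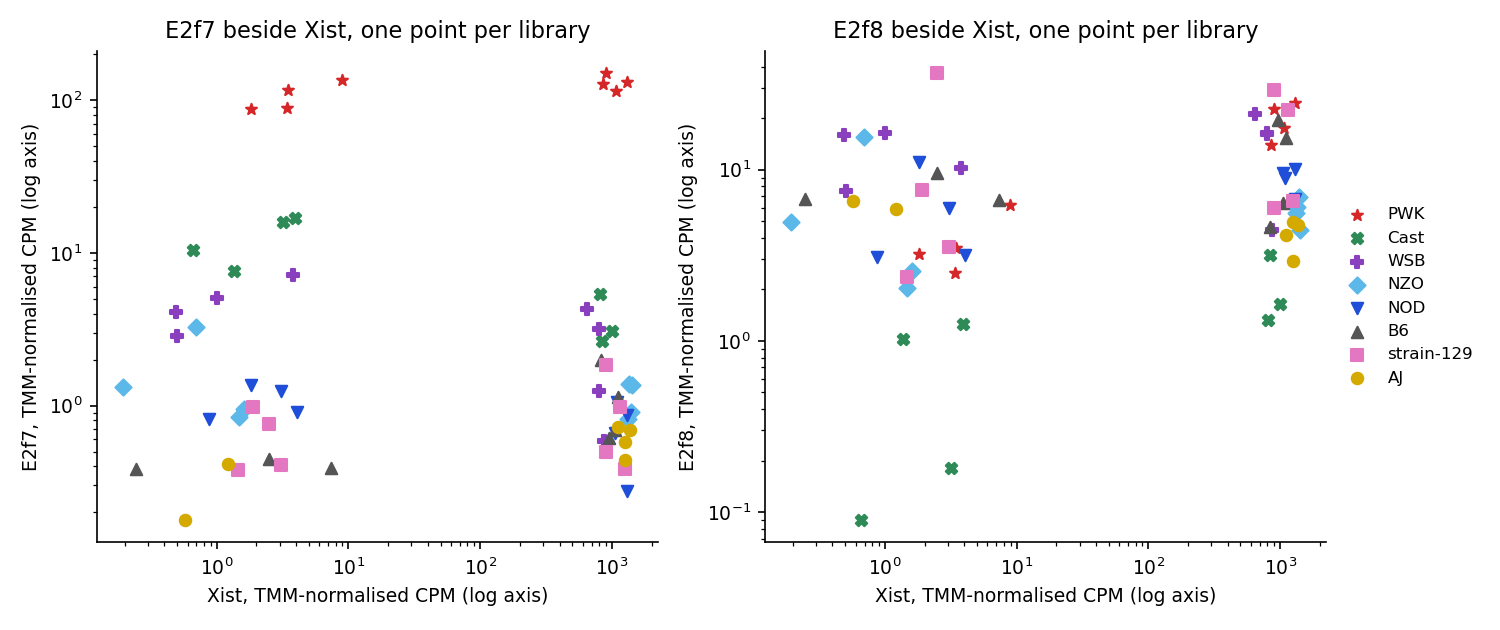
E2f7 (left) and E2f8 (right) against Xist in the 60 liver libraries, all in TMM-normalised CPM on log axes. Each symbol is a library, by strain. Libraries fall into a low-Xist and a high-Xist cloud, and in PWK (stars) the high-Xist libraries have E2f8 of 13.95 CPM or more while E2f7 overlaps between the clouds.

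Within strains, the levels of the paralogues did not move together in a uniform way. The Pearson correlation of E2f7 and E2f8 in log2 CPM over the libraries of a strain was above 0 in 4 of 8 strains, with a lowest value of -0.67 in Cast (n = 7) and a highest of 0.78 in strain-129 (n = 8). In PWK (n = 8) r was 0.77 and Spearman's rho 0.69 (exact permutation p = 0.0247 and 0.0694, adjusted 0.179 and 0.278), and r was 0.44 without the 2 libraries farthest from the median. A mitosis score, the mean log2 CPM of 31 genes of mitosis and cytokinesis, was compared with each gene in the same way. The highest value was that of E2f8 in strain-129 (n = 8), with r = 0.94 and rho = 0.90 (exact permutation p = 0.00253 and 0.00456, adjusted 0.0607 and 0.11), and r = 0.95 without the 2 farthest libraries. For E2f7 in PWK (n = 8), r with the score was 0.09 and rho was 0.17 (exact permutation p = 0.838 and 0.703, adjusted 0.958 and 0.938). Of the 24 relations, 5 had an unadjusted exact permutation p under 0.05 for Pearson's r and 0 had an adjusted one. Libraries of high and low Xist were pooled in these relations. The groups by Xist did not overlap in E2f8 in PWK, in E2f7 in B6, and in either gene in Cast and AJ. The part of Xist in the correlations was not tested.

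The other genes of the pathway were described from 6 lists, each by its counts of called members in PWK against the mean of the other 7 strains, a contrast in which 45.2% of all genes were called, 22.5% higher and 22.7% lower, and the median log2 fold change of all genes was -0.01. This contrast chose E2f7, so the values are given as a description and nothing is read from the counts. The other E2F factors, their DP partners and the pocket proteins that restrain them had 1 of 11 members called higher, 3 lower and a median of -0.05. The number higher was 2 without Cast 6 or NZO 8. E2f5, a repressor that works with pocket proteins, was at 0.29. Rb1, the retinoblastoma gene, was at -0.68 (6.62 ± 1.09 CPM against strain means of 9.35 to 12.2), the repressor E2f6 at -0.32 and the activator E2f3 at -0.28. The activators E2f1 (-0.05) and E2f2 (-0.63), the repressor E2f4 (-0.01), the partners Tfdp1 (0.21) and Tfdp2 (-0.15) and the pocket proteins Rbl1 (0.26) and Rbl2 (0.12) were not called.

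Of the cyclins, kinases and inhibitors of G1, 11 of 12 were tested, 2 were called higher, 2 lower, and the median was -0.02. The number lower fell to 1 or 0 in 38 of the 60 fits that left out a library, and the number higher fell to 1 without PWK 1. The inhibitor Cdkn2b was at 1.64, although at only 0.353 ± 0.165 CPM, and the kinase Cdk2 at 0.22. The inhibitor Cdkn1c was at -0.66 and cyclin D3, Ccnd3, at -0.25. Genes of the G1/S transition and DNA replication, the class that E2F7 and E2F8 are known to repress, had 34 of 35 members tested, 6 higher, 7 lower and a median of -0.11. The number lower was 2 without PWK 9, 4 without PWK 6, and 3 without PWK 2, 5 or 7. The higher ones included Tk1, thymidine kinase (0.93), Rrm2, a subunit of ribonucleotide reductase (0.80), and Pola1, the catalytic subunit of DNA polymerase alpha (0.54). The lower ones included Brca1, of homologous recombination (-0.79), the replicative helicase subunit Mcm4 (-0.33), Tyms, thymidylate synthase (-0.25), and Slbp, the histone mRNA binding protein (-0.17).

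Mybl2 was the exception in that list. It encodes B-Myb, a transcription factor that is itself a known E2F target and acts with the MuvB complex on genes of the later cell cycle. Its level in the PWK libraries 1, 2, 3, 4, 5, 6, 7 and 9 was 11.2, 16.1, 10.9, 7.97, 10.7, 9.39, 9.77 and 8.999 CPM (10.6 ± 2.47, SD, n = 8), a log2 fold change of 4.12 ± 0.19. The highest library of another strain, Cast 6, had 4.66 CPM, and Mybl2 was the only gene of the 6 lists whose PWK libraries did not overlap with those of the other strains. It was 1 of 35 genes of its list. Over all 16165 tested genes, 169 (1.05%) had every PWK library above every other library and 119 (0.736%) every one below. Cast was second for Mybl2, at 2.20 ± 1.71 CPM (n = 7), as for E2f7, and there Mybl2 was higher than the mean of the other 6 strains by 2.16 ± 0.24 (adjusted p = 2.04e-11). In WSB, where E2f7 was also higher, Mybl2 was at 0.552 ± 0.176 CPM and its log2 fold change was -0.17 ± 0.29 (adjusted p = 0.654).

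Of 31 genes of mitosis and cytokinesis, 3 were called higher in PWK, 2 lower, and the median was -0.18. The higher ones were Anln, anillin, a scaffold of the cytokinetic ring (1.05), Birc5, survivin, of the chromosomal passenger complex (1.05), and Aurka, a kinase of the spindle poles (0.70). The spindle motor Kif11 was at -1.32 and the spindle protein Nusap1 at -1.03. All 5 overlapped between PWK and the other strains, with Kif11, for example, at 0.468 ± 0.214 CPM against strain means of 0.231 in Cast to 3.43 in NZO. Of 20 genes of the p53 pathway and the PIDDosome, a complex that senses extra centrosomes, 10 were called lower in PWK, 1 higher, and the median was -0.37. The lower ones included Eda2r, a receptor and p53 target (-1.85), the stress protein Sesn2 (-0.96), Perp (-0.55) and Ccng1, cyclin G1 (-0.47), and the higher one was the kinase Plk2 (0.50). Of 12 genes of the HIF1 pathway 11 were tested, 3 lower, 1 higher, with a median of -0.03. The number higher was 2 without Cast 5, Cast 6 or PWK 3, 4 or 5. The higher one was Vegfa, at 188 ± 21.3 CPM in PWK against strain means of 104 to 139 (0.65 ± 0.07). Its PWK libraries, from 154.3 to 212.4 CPM, overlapped with others, the highest being B6 7 at 167.5 CPM. The glucose transporter Slc2a1 (-0.70), the prolyl hydroxylase Egln3 (-0.44) and Hif1a (-0.24) were lower.

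**Figure D5:**
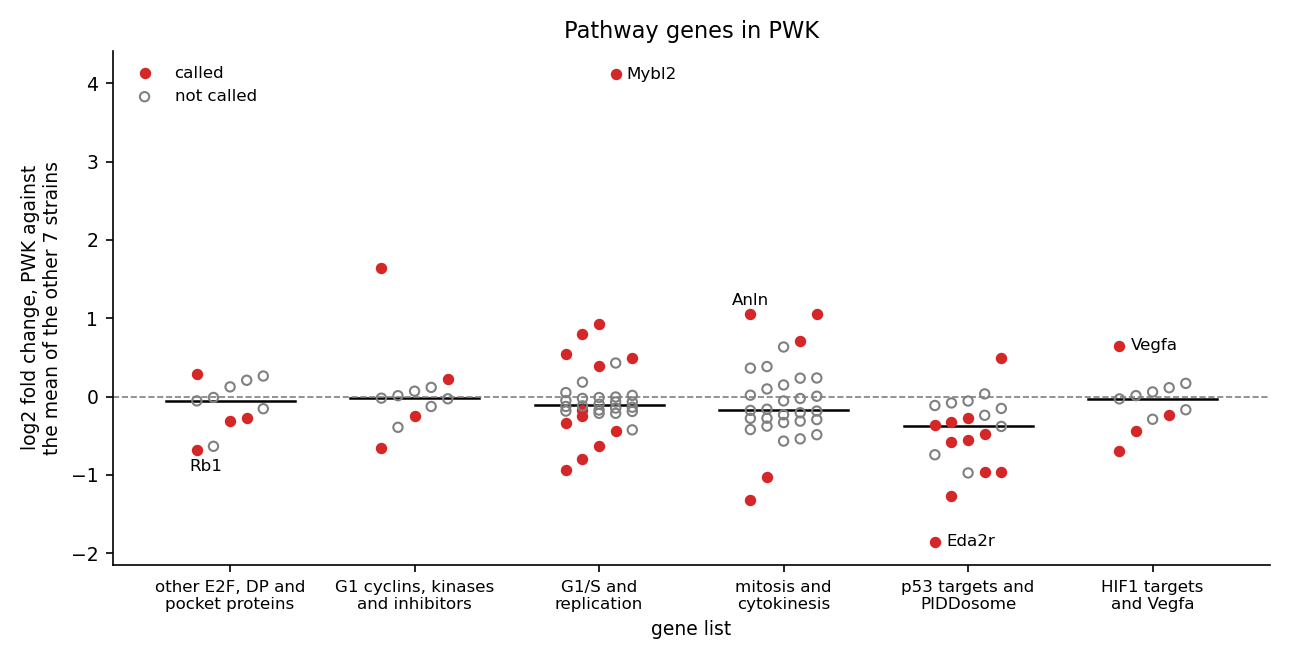
Log2 fold change of each tested pathway gene in PWK against the mean of the other 7 strains, by gene list. Filled points were called at an adjusted p of 0.05, open points were not, and black lines are list medians. Mybl2 lies at 4.12 and every other gene between -1.85 and 1.64.

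The strains that differed in E2f7 and E2f8 outside PWK were examined with the same lists, in contrasts that the choice of genes had not used. In Cast, with high E2f7 and low E2f8, 25 of 31 mitosis genes were called lower and 1, Incenp, higher. The list median was -1.59 against 0.00 for all genes, and 29.6% of all genes were called lower. Incenp was at 11.9 CPM in Cast 5, but its Cast median was 1.60 CPM, against 1.71 CPM over all libraries other than PWK. Kif11 was lower by 2.73 ± 0.34 (adjusted p = 1e-09), Aurka by 1.17 ± 0.20 (adjusted p = 9.15e-07) and Nusap1 by 0.82 ± 0.29 (adjusted p = 0.012), while Anln (0.20) and Birc5 (0.38) were not called. Of the replication genes in Cast, 12 of 34 were called lower and 8 higher. This is 58.8% of the list, close to the 60.4% of all genes called. Beside Mybl2, Rrm2 was higher by 1.61 ± 0.18 (adjusted p = 4.08e-11) and Brca1 by 1.15, whereas Tk1 was at -1.46. E2f1 (-0.61) and E2f2 (-1.50) were called lower in Cast. Markers of several other cell types were also low there. Their summed median in Cast, beside that of all libraries other than PWK, was 8.78 against 15.6 CPM for lymphocytes, 209.1 against 268.9 CPM for Kupffer cells and 214.3 against 349.7 CPM for red cell precursors. It was 306.2 against 391.8 CPM for endothelium and 284.2 against 357.4 CPM for stellate cells. For bile duct it was 32.4 against 33.5 CPM, and for granulocytes it was 1.64 against 1.59 CPM. The part of these cells in the counts was not tested.

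In WSB, with both paralogues higher, 15 of 31 mitosis genes were called lower and 0 higher, with a median of -0.84 against -0.02 for all genes, and 22.5% of all genes were called lower. None of Anln, Aurka, Birc5, Kif11 and Nusap1 was among them. Of the replication genes 13 of 34 were lower, Rrm2 by 1.34 ± 0.22 (adjusted p = 1.74e-06) among them, and Tk1 was higher, at 1.72. The count of 13 became 7 without WSB 6 and 8 without WSB 1. The mitosis count of 15 fell with the replicate number as a block, as given in the last section. E2f2 was lower by 1.91 ± 0.33 (adjusted p = 3.57e-06) in WSB. Marker medians in WSB were 12.6 CPM for lymphocytes, 224.8 CPM for Kupffer cells and 250.6 CPM for red cell precursors, each below that of all libraries other than PWK. Those for bile duct (25.03 CPM) and granulocytes (0.928 CPM) were below as well. Those for endothelium (407.2 CPM) and stellate cells (358.6 CPM) were not, and the part of these cells was not tested.

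NZO, where neither paralogue passed, lay at the other end, with 30 of 31 mitosis genes called higher and 0 lower, a median of 1.94 against 0.01 for all genes. In this contrast 25.2% of all genes were called higher and 18.8% lower. Kif11 was higher by 1.80 ± 0.21 (adjusted p = 5.97e-10) and E2f2 by 2.35 ± 0.23 (adjusted p = 1.21e-12). Replication genes were higher in 20 of 34 and lower in 1, Tk1 (-0.60). NZO 8 had by far the most Mki67, a proliferation marker, with 97.7 CPM, and without it 28 mitosis and 18 replication genes were called higher. NZO also had high marker medians of lymphocytes (31.97 CPM), Kupffer cells (444.7 CPM) and red cell precursors (563.5 CPM). Those of bile duct (64.2 CPM) and granulocytes (5.05 CPM, with 2357 CPM in the highest library) were high too. Those of endothelium (324.8 CPM) and stellate cells (280.8 CPM) were below the medians of all libraries other than PWK. In B6 12 mitosis genes were called higher and 0 lower, beside 18.3% of all genes called higher, and without B6 6 the number was 7. Marker medians in B6 were 33.1 CPM for lymphocytes, 589.2 CPM for Kupffer cells, 400.8 CPM for endothelium and 442.3 CPM for stellate cells. With those of bile duct (40.3 CPM) and granulocytes (2.23 CPM), they were above the medians of all libraries other than PWK. That of red cell precursors (323.8 CPM) was below, and in neither strain was the part of these cells tested. In AJ 1 mitosis gene was called higher and 2 lower, beside 12.1% and 10.3% of all genes. In NOD 1 was called higher and 0 lower, beside 15.7% and 11.0% of all genes. In strain-129, where E2f8 was higher, 0 were called in either direction, beside 12.2% and 9.97% of all genes. These were Cit in AJ and NOD and Prc1 and Ect2 in AJ. These 3 genes, Incenp and Mki67 were named after their values were seen. The edgeR contrasts of different strains share libraries, so their counts are not independent of each other.

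The genes whose level followed E2f7 most closely over the 60 libraries, among 11812 protein-coding genes whose mean reached 1 CPM, were Mterf3 (r = 0.92), Smpd1 (0.91), Mybl2 (0.89), Miox (0.88) and Eif4a1 (0.86). These are correlations of log2 CPM over libraries that share strains, and they mostly separate PWK from the rest. Mterf3, for instance, was at 67.9 CPM in PWK and at 31.9 CPM in the next strain, and Miox, the enzyme that opens the ring of inositol, at 36.9 and 0.251 CPM. After subtraction of strain means the closest were Tspan3 (0.60), Ano6 (0.57), Cadm4 (0.57), Nhsl1 (0.57) and Apobec1 (0.57), none of which was in the first set. For E2f8 the closest were Tspan14 (0.81), Csrp3 (0.78), Pcolce2 (0.78), Lama1 (0.76) and Slc9a9 (0.76), and within strains Slc25a30 (0.74), Stat2 (0.74), Nceh1 (0.74), Onecut1 (0.73) and Rin2 (0.72). Between E2f7 and E2f8 themselves r was -0.05 over libraries and 0.14 within strains. The values within strains also pool libraries of high and low Xist, whose part was not tested.

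Neighbouring genes on the chromosome were examined within 500 kb of each start. Beside E2f7, Osbpl8, an oxysterol-binding protein gene 419.4 kb away, had 97.4 ± 15.4 CPM in PWK against strain means of 51.9 to 69.99 (log2 fold change 0.74 ± 0.12). The nearer Csrp2 (0.11 ± 0.10) and Zdhhc17 (0.02 ± 0.05) were not called, and Nav3 was too low to test, at 0.109 CPM. Beside E2f8, Nav2 was at 0.85 ± 0.13 in PWK. The pseudogene Mrgprb11-ps was at 0.0130 CPM in PWK, against means of 0.0146 to 10.9 CPM in the other strains. Zdhhc13 (0.01), Csrp3 (-0.32), RP24-80O23.1 (-0.15) and Gm2788 (-0.06) were not called, and RP24-89J20.1 was too low to test. RP23-245P16.2 was at 0.00424 CPM in PWK, against means of 0 to 1.16 CPM in the other strains. It was not called, but its fit gave no standard error, so nothing is read from this.

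In GENCODE, Gm2788 overlaps E2f8 on the opposite strand, with 610 exon bases in common. GENCODE ends Gm2788 at 48913040 and the deposited gene table at 48886608, so the overlap in the models used for the counts may differ. Whether the reads were counted by strand is not given in the sources used here. The level of Gm2788 was correlated with that of E2f8 over the 60 libraries (r = 0.76, and 0.90 after subtraction of strain means). The ratio of Gm2788 to E2f8, both in CPM, had medians from 0.306 in WSB to 2.46 in NOD, and E2f8 values are uncertain to the extent that reads of this pair could not be told apart. E2f7 shares 86 exon bases with an antisense gene, 1700020G17Rik, which is not analysed here.

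Hepatocyte markers took 60335 to 116422 CPM in PWK and 43689 to 154044 CPM in the other strains, summed over 8 genes such as Alb and Apob, so the tissue label was met. The summed levels of 7 lists of markers of other cells also overlapped between PWK and the rest. Kupffer cell markers (9 genes) were at 178.4 to 435.5 CPM in PWK and 93.9 to 1015 CPM elsewhere. Lymphocyte markers (11 genes) were at 11.2 to 24.02 and 5.15 to 109.3 CPM, and red cell precursor markers (8 genes) at 298.2 to 582.4 and 62.4 to 926.5 CPM. Endothelial markers (7 genes) were at 359.1 to 475.8 and 209.8 to 467.6 CPM, stellate markers (7 genes) at 229.6 to 289.9 and 193.0 to 486.5 CPM, and bile duct markers (6 genes) at 20.7 to 43.2 and 19.8 to 158.5 CPM. Markers of granulocytes and their precursors (6 of 7 genes, without Mpo) were at 0.0679 to 0.709 CPM in PWK, with a median of 0.211, and at 0.190 to 2357 CPM elsewhere, with a median of 1.59. No marker in the table was at 0 in all libraries, and the part of other cell types in the levels of E2f7 and E2f8 was not tested.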

How the data were processed

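Liver RNA libraries of 8 mouse strains were compared from gene tables. The authors deposited estimated counts, unscaled, with fractional values in 21% of cells. The planned test assumed whole counts, so they were rounded first. The authors also deposited log2 values from a variance-stabilising transformation, used in an alternative. The submitters' processing notes name GRCm38, the sequence of a B6 mouse, and DESeq2, with no version. The aligner, the counter and the use of strand or of strain variants are not given in the sources used. The labels name 61 samples, of which 1, B6 number 5, had no column and was not analysed here. A further column, 1 in number, matched no sample and was not used.

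R 4.3.3 and edgeR 4.0.16 (TMM, filterByExpr by strain, quasi-likelihood F test) were run on 60 libraries and 16165 genes, with strain as the only factor. PWK entered the fit but not the contrasts of E2f7 and E2f8. Two-sided p-values were adjusted by Benjamini-Hochberg over all genes tested, at a threshold of 0.05. The standard error of a fold change was derived from its F statistic. Alternatives used DESeq2 1.42.0 and limma 3.58.1. Correlations were taken on log2 CPM (prior count 2), with exact permutation. Intervals cover 95%. Read numbers describe counting error only, since PCR copies are not independent molecules. The code was tested on simulated data.

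E2f7 and E2f8, the gene lists and the tests were chosen with earlier results of these data known. Of each list, up to 4 members called higher and up to 4 called lower in PWK were named, by smallest p, with every tested E2F, DP and pocket protein gene. The 5 genes most correlated with each paralogue and all neighbours within 500 kb were also named. Values in other strains are those of the same genes unless said otherwise. Xist was examined after the spread within strains was seen, and counts of list members in Cast, WSB, NZO and B6 were put through the alternatives after seeing the data.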

Additional observations from a re-analysis of the deposited data

Results flagged for a closer look

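In 3 of 16 groups (2 genes in 8 strains), the highest library was farther from the others than Dixon's test allows at the 95% level. Chance flags about 1 in 20 groups if values are normally distributed, which CPM at low counts need not be. The groups of the 2 genes also come from the same libraries and are not independent. In NZO 8 E2f7 was at 3.26 CPM, with the other 7 NZO libraries from 0.821 to 1.38 CPM, and its gap was 0.772 of the range of the strain, against a limit of 0.526. The same library had E2f8 at 15.5 CPM, with the others from 2.03 to 6.90 CPM and a gap of 0.637. Without NZO 8, the log2 fold change in NZO was -0.43 for E2f7 and -0.53 for E2f8, and neither was called. In strain-129, library 1 had E2f7 at 1.83 CPM, with the others from 0.381 to 0.985 CPM and a gap of 0.583.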

How the results depend on the processing

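The tests of E2f7 and E2f8 among 7 strains, and their contrasts in Cast, WSB and AJ, kept their direction and their side of the threshold under DESeq2, limma on the variance-stabilised values, no filter, Xist as a covariate, a fit without PWK, the 18S ribosomal RNA row left out, the replicate number as a block, and each library left out. No result reversed under any of these. With DESeq2, E2f7 in NOD passed (-0.79, adjusted p = 0.0319), and with limma E2f8 in strain-129 did not (0.69, adjusted p = 0.0833). Leaving out a library gave -1.36 to -0.82 for E2f7 in B6, -0.91 to -0.66 in NOD, which passed without Cast 2, Cast 3 or WSB 9, and -1.33 to -0.93 in strain-129.

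Counts of list members in PWK moved more. Genes of G1 called lower went from 2 to 1 with limma, with no filter and without the 18S row, and from 0 to 2 over the libraries left out, moving in 38 of 60. Those called higher ranged from 1 to 2, E2F family genes called higher from 1 to 2, and were 2 with Xist as a covariate. HIF1 genes called higher ranged from 1 to 2. Replication genes called lower ranged from 2 to 7, being 2 to 4 without PWK 2, 5, 6, 7 or 9. In other strains, replication genes lower in WSB ranged from 7 to 13 and mitosis genes higher in B6 from 7 to 15. With the replicate number as a block, E2f7 in B6 was at -0.91 and did not pass (adjusted p = 0.0539), 2 E2F family genes were higher, 1 gene of G1 and 3 replication genes lower in PWK, and 8 mitosis genes lower in WSB. The cause of these changes was not tested. The numbers were not taken as a pairing, which required a correlation of deviations over 0.1 in every same-numbered pair. It was over 0.1 in 131 of 181 such pairs (from -0.43 to 0.53, median 0.20), against 566 of 1392 differently numbered pairs (median -0.07). Of the libraries, 7 of 60 libraries correlated best with their own number. The number also went with Xist. Libraries 1 to 4 had high Xist and later numbers low Xist in AJ, B6, NOD, NZO and strain-129, as did 1 to 3 and later numbers in Cast. In PWK (1, 2, 6 and 7 high) and WSB (1, 3, 4 and 9 high) this order did not hold. The part of Xist in the block results and in the correlations by number was not tested. Mean CPM values of both genes moved by less than 1 SD in all 136 alternatives. For the alternatives that left out 1 library this was fixed in advance, since 1 library cannot move a strain mean that far. Depth limits E2f7 in AJ, NOD, B6 and strain-129, where a library held as few as 5 to 11 reads.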
